A study of Mus musculus with 6 samples.

Results

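The MYC and MAX network is a family of DNA-binding proteins with a basic helix-loop-helix leucine zipper, and its 9 genes Myc, Mycl, Max, Mxd1, Mxd3, Mxd4, Mxi1, Mnt and Mlx were taken by gene symbol from a deposited table of 23034 mouse genes. RNA sequencing was done on bone marrow-derived macrophages in the M2 state, 3 libraries from cells given SA@BATMAN5 and 3 control libraries from cells given PBS. The title of the series speaks of tuftsin clusters directed to Fc gamma receptors and of macrophages in sepsis, and the labels say no more of what SA@BATMAN5 is. SA@BATMAN5 and control macrophages alike came from WT mouse marrow, had matured in 10 ng/ml of M-CSF, spent 24 h in 20 ng/ml of IL-4 to reach the M2 state, were reseeded, and were then kept with SA@BATMAN5 or PBS for 24 h. It is not stated whether IL-4 was still present during the treatment. Nor do the labels tie replicate numbers to separate animals or cultures. The p-values therefore set the group difference only against the spread among these libraries within a group, and that spread may be technical.

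MAX is the shared partner of the network. MYC, and its relative L-MYC encoded by Mycl, pair with MAX on E-box DNA and activate genes of growth, ribosome production and cell division, whereas the MXD proteins, MXI1 and MNT compete with MYC for MAX and recruit SIN3 and histone deacetylases to repress the same kind of gene. MLX is the MAX-like partner of the glucose-sensing Mondo proteins, and it also pairs with some MXD proteins and MNT. In human macrophages MYC is known to be induced by IL-4.

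The count table held 29739263 to 37212125 counts per SA@BATMAN5 library and 38740103 to 47018154 per control library, so every control library was deeper. All 8 macrophage markers, among them Adgre1 (F4/80) and Csf1r, passed the filter on low counts, and they summed to 22117 to 22366 CPM (counts scaled to the TMM-adjusted library total) in SA@BATMAN5 libraries against 15817 to 15980 CPM in control libraries. That sum is mostly Lyz2 (13842 CPM with SA@BATMAN5 and 9767 CPM in controls), and of the 8, 6 were called higher and 2 lower, Cd68 (log2 fold change -0.24, edgeR adjusted p 2.26e-06) and Itgam (-0.42, adjusted p 1.23e-08). Of the markers of other cell types, the 6 of fibroblasts and stromal cells summed to 1073 to 1236 CPM in SA@BATMAN5 libraries against 750 to 931 CPM in control libraries, with Lum at 0. The 7 neutrophil markers summed to 60.0 to 70.8 CPM in SA@BATMAN5 libraries against 7.25 to 7.77 CPM in controls, with Ly6g, Mpo and Retnlg at 0, and S100a8 alone gave 56.6 to 66.6 CPM of the sum with SA@BATMAN5 and 5.51 to 5.70 CPM of it in controls. The 6 dendritic cell markers summed to 6.63 to 7.57 CPM in SA@BATMAN5 libraries and 4.74 to 5.12 CPM in controls, with Flt3 and Siglech at 0. Of these, Ccr7 was at 3.27 CPM with SA@BATMAN5 and 0.0894 CPM in controls, while Zbtb46 was at 2.03 CPM with SA@BATMAN5 and 2.44 CPM in controls, Xcr1 at 1.34 CPM with SA@BATMAN5 and 1.49 CPM in controls, and Clec9a at 0.523 CPM with SA@BATMAN5 and 0.930 CPM in controls, the last 3 not past the threshold. The 6 lymphocyte markers reached 2.72 to 6.54 CPM in SA@BATMAN5 libraries and 0.702 to 1.60 CPM in controls, with Cd3e at 0. The 4 mast cell and basophil markers reached 0.445 to 1.03 CPM in SA@BATMAN5 libraries and 0.0640 to 0.251 CPM in controls, with Fcer1a at 0, and the 3 erythroid markers were at 0 in all 6 libraries. The part of these other markers in the results below was not tested.

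Of 13474 genes that passed the filter, 3980 were higher and 3866 lower in SA@BATMAN5 macrophages by edgeR's quasi-likelihood test at a Benjamini-Hochberg adjusted p under 0.05, which is 58.2% of genes called. With upper-quartile scaling in place of TMM the split was 3239 higher and 4791 lower.

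Among the 9 network genes, 8 passed the filter and 7 were called, 3 higher (Max, Mxd1 and Mlx, where 29.5% of all genes were called higher) and 4 lower (Myc, Mxd4, Mxi1 and Mnt, where 28.7% were called lower). Mxd3 was tested and did not pass the threshold, and Mycl had too few counts to be tested. Myc and Mxd4 were at least 2-fold lower (7.35% of all genes were called and as far down), and no member was called at least 2-fold higher (9.17% of all genes were). In CPM the groups did not overlap for the 8 tested members, with 3 higher and 5 lower in SA@BATMAN5 libraries, where 32.1% of all genes lay wholly higher and 32.0% wholly lower. The median log2 fold change of the 8, SA@BATMAN5 over control, was -0.42, beside -0.0041 over all genes tested. The RNA came from whole cultures, so fewer cells of a type and less RNA per cell cannot be told apart.

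**Figure D1:**
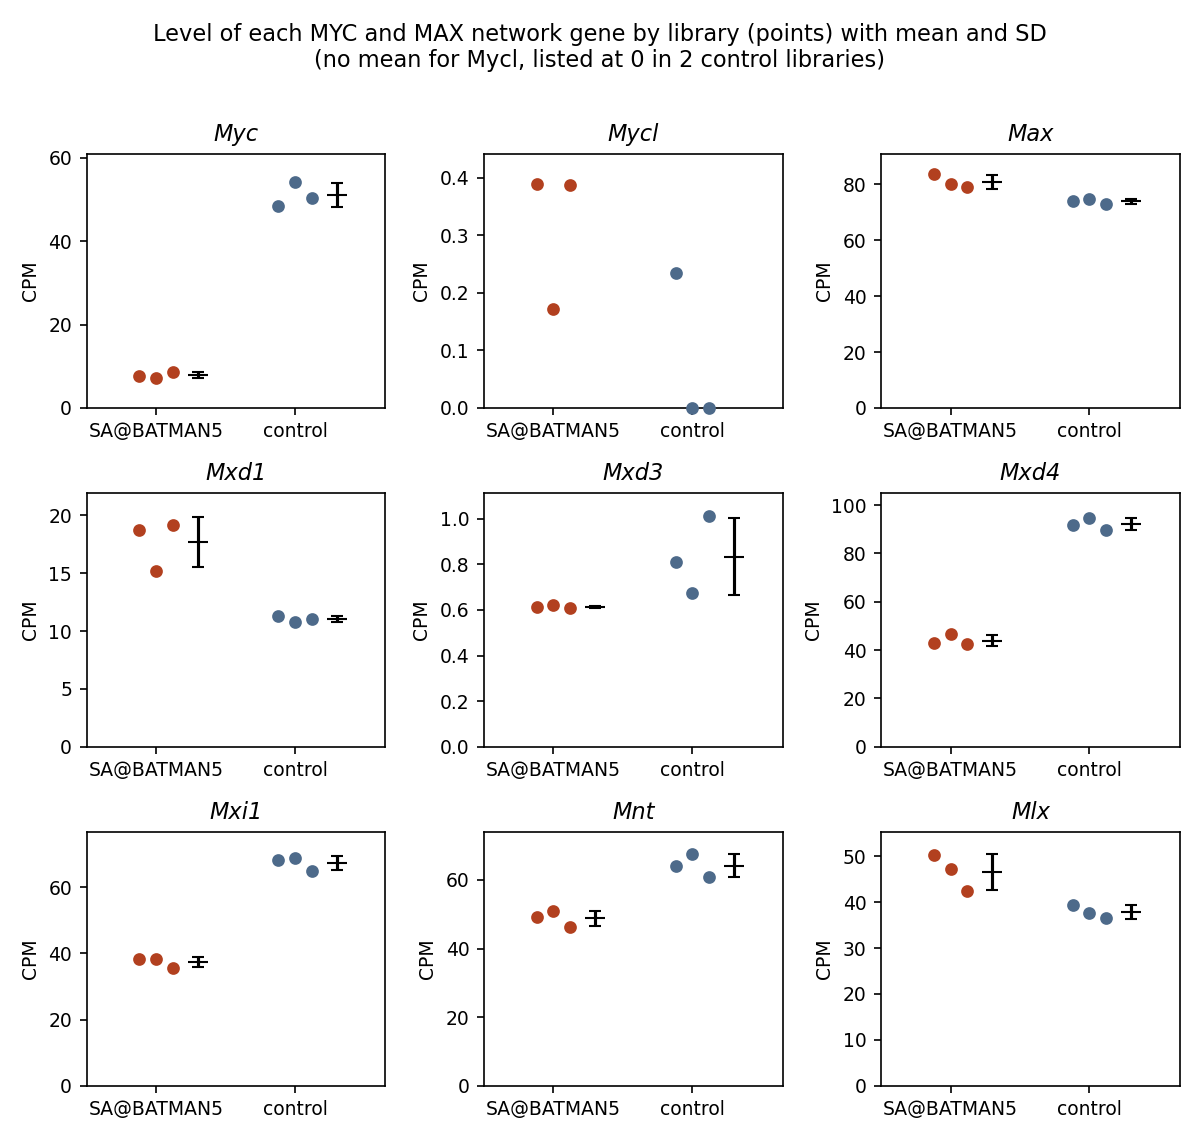
Each panel plots the level of a network gene in CPM with TMM-scaled totals on a linear axis that starts at 0, with points for the 3 SA@BATMAN5 and 3 control libraries and a bar for mean and SD (n = 3 each, none drawn for Mycl). The SA@BATMAN5 libraries lie between 7.27 and 8.64 CPM for Myc, against 48.6 to 54.1 CPM in control libraries, and the groups overlap for Mycl alone.

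Before the values, the promoter sequences of 4 members show where the letters of the E-box, the site that MAX dimers bind, occur in the network's own genes. Of the 9 members, 8 matched the RefSeq promoter table, with 10 windows in all on the build GRCm38.p6, each from 250 bases before to 50 bases after an annotated start. The member without a window was Myc, so its promoter was not searched for either motif. The E-box CACGTG, which reads the same on both strands, was found in the windows of Max, Mxd4, Mnt and Mlx, beside 7.15% of all 32851 windows and 11.6% of the 10089 tested genes with a window. Each stretch below runs 5' to 3' on the gene's own strand with 24 bases on either side, and the capitals mark the E-box.
Max, chr12:76962222-76962275, minus strand: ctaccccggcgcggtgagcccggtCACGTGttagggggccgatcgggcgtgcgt
Mxd4, chr5:34187900-34187953, minus strand: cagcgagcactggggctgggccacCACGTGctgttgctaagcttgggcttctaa
Mnt, chr11:74830777-74830830, plus strand: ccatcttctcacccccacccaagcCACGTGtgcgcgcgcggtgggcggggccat
Mlx, chr11:101087226-101087279, plus strand: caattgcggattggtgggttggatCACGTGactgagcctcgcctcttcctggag
With the annotated start as position 0, the E-box begins at -3 in Max, -40 in Mlx, -123 in Mnt and -219 in Mxd4. A match is a description of letters and not a measured binding site. The 4 genes with an E-box did not move one way, since Max and Mlx were called higher and Mxd4 and Mnt lower. The STAT6-type motif, TTC and GAA held 4 bases apart, also reads the same on both strands and is shown because STAT6 carries the IL-4 signal. It was found in 6.95% of all windows and in 6.68% of the 10089 tested genes with a window. Among the 8 matched members it was found in 1, in the middle one of 3 windows of Mxi1, where it begins at -215. Capitals mark its fixed letters.
Mxi1, chr19:53329174-53329231, plus strand: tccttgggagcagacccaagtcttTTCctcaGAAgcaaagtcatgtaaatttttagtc

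The activator Myc fell, and had the lowest log2 fold change of the 8 tested members. It had 7.73, 7.27 and 8.64 CPM in the SA@BATMAN5 libraries, against 48.6, 54.1 and 50.4 CPM in the control libraries. Every SA@BATMAN5 library was low and the groups were far apart, with no library in between. The means were 7.88 ± 0.701 CPM with SA@BATMAN5 and 51.0 ± 2.84 CPM in controls (SD, n = 3 each), a log2 fold change of -2.69 ± 0.07 (SE) with an adjusted p of 5.03e-13 by edgeR, which leaves 15.5% of the control level. These levels rest on 278, 211 and 313 counts in SA@BATMAN5 libraries and 2275, 2161 and 2441 counts in control libraries. Of all tested genes, 3.90% had a larger absolute log2 fold change, and 144 had a lower one than Myc.

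Mycl, which encodes the activator L-MYC, was at the edge of detection. It had 14, 5 and 14 counts in SA@BATMAN5 libraries, against 11, 0 and 0 counts in control libraries. The groups overlapped, because control library 1 held more counts than SA@BATMAN5 library 2. Without the filter on low counts edgeR gave Mycl a log2 fold change of 1.95 and an adjusted p of 0.154. Its level was at most 0.0874 FPKM (fragments scaled to transcript length and library total, the authors' unit) in any library. Zeros in the other control libraries beside 10 to 12 counts in 1 of them were seen in 24 of 910 such cases over all genes, or 2.64%.

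Max, the obligate partner, stayed close to its control level. It had 83.7, 80.0 and 79.0 CPM with SA@BATMAN5, against 74.1, 74.8 and 72.9 CPM in controls. The SA@BATMAN5 libraries lay a little above the control libraries in CPM without overlap, while on the authors' FPKM scale the groups overlapped. The means of Max were 80.9 ± 2.45 CPM with SA@BATMAN5 and 73.9 ± 0.961 CPM in controls (SD, n = 3 each), a log2 fold change of 0.13 ± 0.04 (SE) with an edgeR adjusted p of 0.0111. That call did not hold with library totals in place of TMM (log2 fold change 0.06, adjusted p 0.235), with upper-quartile scaling (0.05, adjusted p 0.294), with limma on log2(FPKM + 1) (0.04, adjusted p 0.390) or without SA@BATMAN5 library 1 (0.10, adjusted p 0.0588).

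The MXD repressors, antagonists of MYC, moved in both directions. Mxd1, the founding MAD protein that is known to accumulate as myeloid cells mature, rose. It had 18.7, 15.2 and 19.2 CPM in SA@BATMAN5 libraries, against 11.3, 10.7 and 11.0 CPM in control libraries. All SA@BATMAN5 libraries were higher than every control library, and library 2 was the lowest of the 3. The means were 17.7 ± 2.19 CPM with SA@BATMAN5 and 11.0 ± 0.261 CPM in controls (SD, n = 3 each), and the log2 fold change of Mxd1 was 0.69 ± 0.10 (SE, adjusted p 2.54e-05 by edgeR), a 1.61-fold rise. It was the one repressor of the 5 that was called higher.

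Mxd4 and Mxi1, repressors that bind MAX and recruit SIN3, both fell. Mxd4 had 42.7, 46.7 and 42.3 CPM with SA@BATMAN5, against 91.7, 94.7 and 89.8 CPM in controls. Mxi1 had 38.3, 38.4 and 35.7 CPM with SA@BATMAN5, against 68.1, 69.0 and 65.0 CPM in controls. For either gene the 3 SA@BATMAN5 libraries lay close together and well below all control libraries. The log2 fold change was -1.07 ± 0.05 for Mxd4 (SE, edgeR adjusted p 1.01e-10), from means of 43.9 ± 2.41 CPM with SA@BATMAN5 and 92.0 ± 2.47 CPM in controls (SD, n = 3 each). For Mxi1 it was -0.85 ± 0.05 (SE, edgeR adjusted p 1.76e-09), from means of 37.4 ± 1.51 CPM with SA@BATMAN5 and 67.4 ± 2.08 CPM in controls (SD, n = 3 each). Mxd4 was thus at 47.7% and Mxi1 at 55.6% of the control level.

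Mxd3, a repressor known to be expressed in cells that are in S phase, was low in both groups. It had 22, 18 and 22 counts in SA@BATMAN5 libraries, against 38, 27 and 49 counts in control libraries, or 0.611, 0.620 and 0.607 CPM with SA@BATMAN5 against 0.811, 0.676 and 1.01 CPM in controls. No SA@BATMAN5 library reached a control library, and the control libraries were the more spread. The log2 fold change of -0.45 ± 0.34 (SE) had an adjusted p of 0.272 by edgeR and did not pass. With limma on log2(FPKM + 1) it passed at -0.16 (adjusted p 0.0484). Its annotated span shares 105 bases with Prelid1 on the opposite strand, a gene at 183 CPM with SA@BATMAN5 and 181 CPM in controls, and the strand setting of the counts is not given in the sources used here.

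Mnt, a widely expressed MAX partner that binds SIN3 and tempers MYC, fell too. It had 49.1, 50.8 and 46.4 CPM with SA@BATMAN5, against 64.1, 67.6 and 60.8 CPM in controls. The groups did not overlap. Its means were 48.8 ± 2.22 CPM with SA@BATMAN5 and 64.2 ± 3.37 CPM in controls (SD, n = 3 each), a log2 fold change of -0.40 ± 0.05 (SE, edgeR adjusted p 1.37e-05) that put Mnt at 76.0% of the control level.

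Mlx, the MAX-like partner, rose slightly. It had 50.2, 47.2 and 42.4 CPM with SA@BATMAN5, against 39.4, 37.6 and 36.6 CPM in controls. SA@BATMAN5 library 3 lay nearest to the controls, and on the FPKM scale it fell below control library 1 (18.0 against 18.1 FPKM). The means of Mlx were 46.6 ± 3.97 CPM with SA@BATMAN5 and 37.9 ± 1.45 CPM in controls (SD, n = 3 each), and the log2 fold change was 0.30 ± 0.06 (SE, edgeR adjusted p 0.000947). Mlx overlaps Psmc3ip on the opposite strand over 385 bases, a gene at 1.73 CPM with SA@BATMAN5 and 2.63 CPM in controls. Max, Mxd1, Mxd4 and Mxi1 also overlap annotated genes, none of which was found by name among the genes tested. The longest such overlap is that of Mxi1 with AC133451.2, over 5146 bases on the opposite strand.

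**Figure D2:**
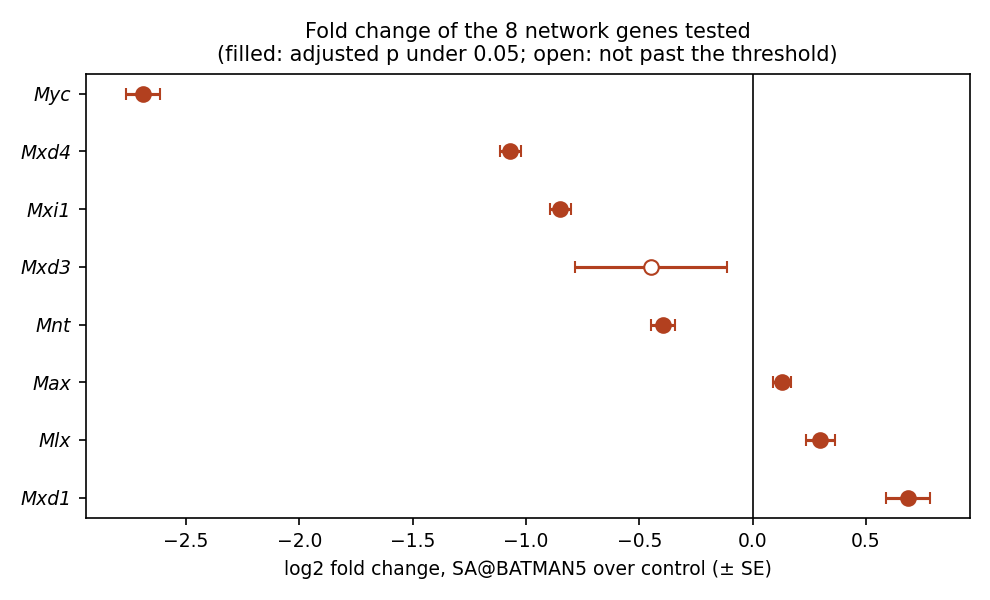
The plot gives the log2 fold change, SA@BATMAN5 over control, of the 8 tested network genes, with bars for the SE of the edgeR fit. Myc stands at -2.69, Mxd4 at -1.07 and Mxi1 at -0.85, while Mxd1 is the highest at 0.69.

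Counts divided by FPKM give the transcript length that the authors' values imply, up to the library total. Scaled this way, the 8 members with counts in every library had a ratio of implied length, SA@BATMAN5 over control, between 0.992 and 1.02, so the FPKM values of each gene used nearly the same length in both groups. In the authors' deposited table, from their DESeq2 comparison, the log2 fold change was -2.69 for Myc, -1.07 for Mxd4, -0.84 for Mxi1, -0.39 for Mnt, 0.13 for Max, 0.30 for Mlx and 0.69 for Mxd1, and Mxd3 and Mycl carried a dash.

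Levels of different genes were set side by side per length, in FPKM. In SA@BATMAN5 macrophages Max was highest at 36.4 ± 1.48 FPKM, followed by Mlx at 20.1 ± 1.85 and Mxi1 at 12.2 ± 0.588 FPKM. Below these came Mxd4 at 9.30 ± 0.830 and Mnt at 8.59 ± 0.505 FPKM, whose libraries overlapped, and then Myc at 3.07 ± 0.219 and Mxd1 at 3.06 ± 0.338 FPKM, which overlapped as well (SD, n = 3). Mxd3 at 0.366 ± 0.00299 FPKM and Mycl closed the order. In control macrophages Max was again highest at 35.3 ± 0.903 FPKM, and Mxi1 at 23.1 ± 0.917, Myc at 21.4 ± 1.56 and Mxd4 at 20.4 ± 0.718 FPKM followed. The libraries of Myc overlapped with those of both Mxi1 and Mxd4, which did not overlap with each other. Mlx at 17.2 ± 0.853, Mnt at 11.9 ± 0.641, Mxd1 at 2.01 ± 0.0559 and Mxd3 at 0.533 ± 0.111 FPKM came below them. Myc thus lay beside Mxd1 in SA@BATMAN5 macrophages, and beside Mxi1 and Mxd4 in controls.

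Summed over the 9 genes, the network's transcripts came to 93.2 ± 4.20 FPKM with SA@BATMAN5 and 132 ± 4.30 FPKM in controls (SD, n = 3 each). Myc made up 3.31 ± 0.394% of that sum with SA@BATMAN5 and 16.2 ± 0.911% in controls. The share of Max was 39.1 ± 0.662% with SA@BATMAN5 and 26.8 ± 0.192% in controls, and that of Mlx 21.5 ± 1.07% with SA@BATMAN5 and 13.0 ± 0.640% in controls. Max itself was at 36.4 FPKM with SA@BATMAN5 and 35.3 FPKM in controls, so its larger share mainly reflects the smaller sum. Mxi1 held 13.1 ± 0.234% with SA@BATMAN5 and 17.5 ± 0.257% in controls, and Mxd4 9.98 ± 0.727% with SA@BATMAN5 and 15.4 ± 0.0664% in controls. The share of Mnt was 9.22 ± 0.279% with SA@BATMAN5 and 9.02 ± 0.192% in controls.

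Relative to Myc, each antagonist was higher within SA@BATMAN5 libraries than within control libraries. Myc had the lowest log2 fold change of the tested members, so every ratio of a tested member over Myc had to rise. These ratios restate the fold changes above, and Mxd4, Mxi1 and Mnt themselves fell. The FPKM of Mxd1 divided by that of Myc was 1.10, 0.899 and 0.990 in SA@BATMAN5 libraries, against 0.103, 0.0846 and 0.0953 in control libraries. Mxd1 transcript was thus about level with Myc in every SA@BATMAN5 library and far below it in every control library. In log2 ratios of counts the difference, SA@BATMAN5 minus control, was 3.37 for Mxd1 to Myc, 2.83 for Max to Myc, 2.30 for Mnt to Myc, 2.29 for Mxd3 to Myc, 1.85 for Mxi1 to Myc and 1.63 for Mxd4 to Myc, whereas Mlx to Max differed by 0.17. Of 8 pairs compared, the remaining one, Mycl to Myc, is given no size because Mycl was at 0 in 2 of the 3 control libraries. For each of the 8 the exact two-sided permutation test gave p = 0.1, and 0.1 after adjustment over the 8, the smallest value that 3 against 3 libraries allow. For the pairs over Myc the direction was fixed by the fall of Myc, so the test gives no separate support. The 5 MXD and MNT genes together were 11.4, 11.8 and 9.65 times Myc in FPKM in SA@BATMAN5 libraries, against 2.90, 2.58 and 2.65 times in control libraries, although their own sum was 33.5 ± 1.53 FPKM with SA@BATMAN5 and 58.0 ± 2.11 FPKM in controls (SD, n = 3 each).

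**Figure D3:**
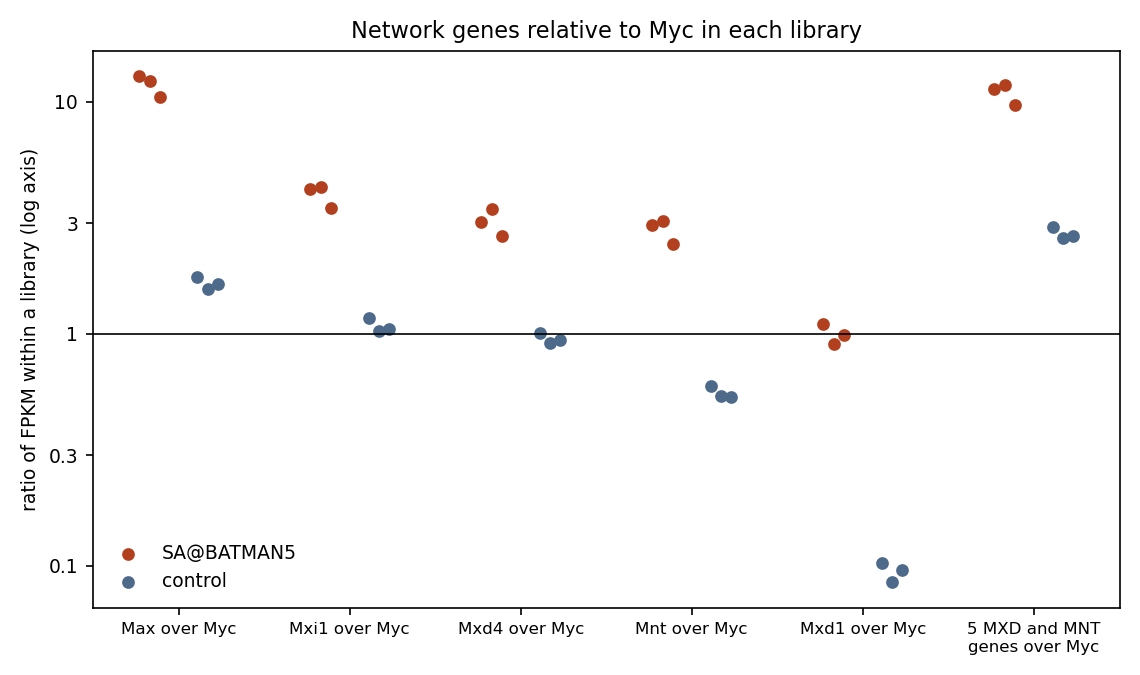
The FPKM of Max, Mxi1, Mxd4, Mnt, Mxd1 and the summed 5 MXD and MNT genes, each divided by that of Myc, is plotted by library on a log axis, with points for the 3 SA@BATMAN5 and 3 control libraries. The Mxd1 ratio lies between 0.899 and 1.10 in SA@BATMAN5 libraries and between 0.0846 and 0.103 in control libraries, and no ratio shown overlaps between the groups.

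The wider relatives of the network showed no call among the 3 of 5 that were tested, beside 58.2% of all tested genes called. Mga, a large MAX partner of a repressive Polycomb complex, had a log2 fold change of 0.08 ± 0.06 (edgeR adjusted p 0.335). Mlxip, which encodes the MLX partner MondoA, had 0.07 ± 0.04 (adjusted p 0.118), and Zbtb17, which encodes the MYC partner MIZ1, had 0.16 ± 0.08 (adjusted p 0.119, SE in each case). The untested pair was at or near 0, with 3, 0 and 0 counts of Mycn in SA@BATMAN5 libraries against 0 in all control libraries, and with no count of Mlxipl, the gene of ChREBP, in SA@BATMAN5 libraries against 0, 3 and 0 counts in control libraries.

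Of 11 genes of the SIN3 and NCOR corepressors through which MXD proteins and MNT act, 5 were higher, 2 lower and 4 did not pass (median log2 fold change 0.14), which is 45.5% higher and 18.2% lower beside 29.5% and 28.7% of all tested genes. Sap30, a subunit of the SIN3 complex, was at 61.4 ± 3.01 CPM with SA@BATMAN5 and 30.8 ± 0.888 CPM in controls (log2 fold change ± SE 0.99 ± 0.05, adjusted p 6.39e-10 by edgeR, and in this form for the genes below). The scaffolds Sin3a (0.53 ± 0.06, adjusted p 2.38e-06) and Sin3b (0.35 ± 0.04, adjusted p 4.07e-06) also rose. With library totals or upper-quartile scaling 4 of the 11 were lower. Over all 13474 tested genes the count lower also rose, from 3866 to 4694 with library totals and 4791 with upper-quartile scaling.

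Of 14 MYC coactivator genes 5 were higher, 3 lower and 6 did not pass, at a median of 0.09. That is 35.7% higher and 21.4% lower, beside 29.5% and 28.7% of all tested genes, or 57.1% called beside 58.2%. With limma on FPKM 2 to 3 were higher. The acetyltransferase gene Ep300 rose (0.33 ± 0.04, edgeR adjusted p 9.59e-06), while the elongation kinase gene Cdk9 fell (-0.23 ± 0.04, adjusted p 6.50e-05). Of 16 genes that set MYC protein turnover and stability, 3 were higher (18.8%, beside 29.5% of all tested genes), 8 lower (50%, beside 28.7%) and 5 did not pass, at a median of -0.16. Cip2a, whose product shields MYC from the phosphatase PP2A, fell (-0.93 ± 0.10, edgeR adjusted p 1.88e-06). Ppp2r5a, which encodes the PP2A subunit that is directed at MYC, rose (0.52 ± 0.05, adjusted p 2.13e-07). The list mixes genes that stabilise MYC with genes that promote its loss, and its called genes point both ways. Set was also higher (0.19 ± 0.03, edgeR adjusted p 0.000174) and Gsk3b lower (-0.24 ± 0.05, adjusted p 0.000659), named after their values were seen. No direction of MYC stability can be read from the list, and MYC protein was not measured.

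Of 13 transcription factors and pathway genes known to act on the Myc gene, 6 were higher, 1 lower and 6 did not pass, at a median of 0.09. That is 46.2% higher and 7.69% lower, beside 29.5% and 28.7% of all tested genes, or 53.8% called beside 58.2%. Il4ra, the receptor chain for IL-4, was at 105 ± 0.348 CPM with SA@BATMAN5 and 60.4 ± 2.40 CPM in controls (0.80 ± 0.04, adjusted p 4.68e-10 by edgeR), and Stat3 rose by 0.57 ± 0.04 (adjusted p 9.50e-09). Csf1r, the M-CSF receptor, which is also among the macrophage markers, was at 2026 ± 25.2 CPM with SA@BATMAN5 and 1107 ± 16.2 CPM in controls (0.87 ± 0.03, adjusted p 1.54e-12). The gene called lower was Tcf7l2, a mediator of Wnt signalling (-0.96 ± 0.09, adjusted p 4.98e-07), named after its value was seen. Under library totals, upper-quartile scaling or limma on FPKM, 3 of the 13 were lower. The count lower over all 13474 tested genes shifted as well. It went from 3866 to 4694 with library totals and 4791 with upper-quartile scaling, and is not given here for limma.

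Of 66 growth genes that MYC is known to activate, 65 were tested, and 8 were higher (12.3%, beside 29.5% of all tested genes), 35 lower (53.8%, beside 28.7%) and 22 did not pass, at a median of -0.18. Tfrc, the transferrin receptor, had 42.1, 46.3 and 44.2 CPM in SA@BATMAN5 libraries, against 278, 240 and 239 CPM in control libraries. No SA@BATMAN5 library came near the controls, and the log2 fold change of -2.51 ± 0.06 (SE, edgeR adjusted p 9.68e-14) was the lowest of the list. Odc1, the rate-limiting enzyme of polyamine synthesis, was at 75.8 ± 2.34 CPM with SA@BATMAN5 and 140 ± 1.46 CPM in controls (-0.88 ± 0.04, adjusted p 5.97e-11). The translation factor gene Eif4a1 was at 571 ± 3.50 CPM with SA@BATMAN5 and 872 ± 11.2 CPM in controls (-0.61 ± 0.03, adjusted p 1.23e-10).

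The growth genes did not move as 1 group. Mthfd2, a mitochondrial enzyme of folate metabolism, was at 65.4 ± 2.28 CPM with SA@BATMAN5 and 31.4 ± 3.47 CPM in controls (1.06 ± 0.07, edgeR adjusted p 8.14e-09). Slc3a2, a heavy chain of amino acid transporters (0.59 ± 0.04, adjusted p 6.76e-09), and Bop1, a ribosome assembly factor (0.51 ± 0.05, adjusted p 4.03e-07), also rose, and these 3 genes were chosen after their values were seen. With limma on FPKM 5 of the list were higher. An E-box was present in the window of 17 of the 56 growth genes with one, or 30.4%, beside 11.6% of all tested genes with a window. Over all tested genes, 29.5% were called higher and 28.7% lower. Of the 17 tested growth genes with an E-box 1 was higher, 9 lower and 7 did not pass (median -0.25), and of the 38 without one 5 were higher, 22 lower and 11 did not pass (median -0.19). The difference between these medians was not tested.

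Of 11 genes known to be repressed by MYC, 3 were higher (27.3%, beside 29.5% of all tested genes), 5 lower (45.5%, beside 28.7%) and 3 did not pass, at a median of -0.21. Fth1, the ferritin heavy chain, was at 29850 ± 990 CPM with SA@BATMAN5 and 10608 ± 176 CPM in controls (1.49 ± 0.03, edgeR adjusted p 5.20e-15). Pdgfrb, which is also among the stromal markers given above, was at 30.9 ± 3.20 CPM with SA@BATMAN5 and 8.04 ± 1.49 CPM in controls (1.94 ± 0.12, adjusted p 3.85e-09). Cebpa, a transcription factor of myeloid differentiation, fell to 122 ± 1.86 CPM with SA@BATMAN5, against 259 ± 5.61 CPM in controls (-1.09 ± 0.03, adjusted p 1.86e-12). The cell cycle inhibitor gene Cdkn1a, a classical MYC-repressed gene named after its value was seen, had -0.04 ± 0.05 (adjusted p 0.533).

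Targets of MondoA and MLX were few. Txnip, an inhibitor of glucose uptake, was at 389 ± 10.1 CPM with SA@BATMAN5 and 550 ± 5.77 CPM in controls (-0.50 ± 0.03, edgeR adjusted p 4.10e-09). Klf10 also fell (-0.50 ± 0.04, adjusted p 2.56e-07), and the Txnip relative Arrdc4 rose (0.18 ± 0.06, adjusted p 0.0142), a call that was lost with library totals, upper-quartile scaling, limma on FPKM, and without SA@BATMAN5 library 2 or control library 1. Pklr was at 0 in all libraries.

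Of 9 genes that work on human macrophages linked to MYC in alternative activation or in tumours, 8 were tested, and 3 were higher (37.5%, beside 29.5% of all tested genes), 4 lower (50%, beside 28.7%) and 1 did not pass, at a median of -0.30. Pparg, a nuclear receptor of lipid metabolism, was at 3.21 ± 0.337 CPM with SA@BATMAN5 and 72.4 ± 3.65 CPM in controls (-4.49 ± 0.09, edgeR adjusted p 3.17e-15). Mrc1, the mannose receptor CD206, was at 66.9 ± 3.48 CPM with SA@BATMAN5 and 1205 ± 75.1 CPM in controls (-4.17 ± 0.05, adjusted p 1.17e-16). Mmp9, a secreted gelatinase, moved the other way, at 1204 ± 56.7 CPM with SA@BATMAN5 and 57.0 ± 0.310 CPM in controls (4.40 ± 0.04, adjusted p 7.66e-18).

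Genes of S phase and mitosis, processes that MYC promotes, were mostly lower: of 14, 12 were lower (85.7%, beside 28.7% of all tested genes), none was higher (29.5% of all tested genes were) and 2 did not pass, at a median of -1.08. Pcna, the clamp of DNA polymerase, was at 190 ± 2.50 CPM with SA@BATMAN5 and 411 ± 3.73 CPM in controls (-1.11 ± 0.03, edgeR adjusted p 4.48e-13). Rrm2, a subunit of ribonucleotide reductase (-1.36 ± 0.09, adjusted p 1.58e-08), and the mitotic kinase gene Cdk1 (-1.05 ± 0.07, adjusted p 2.38e-08) fell as well.

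**Figure D4:**
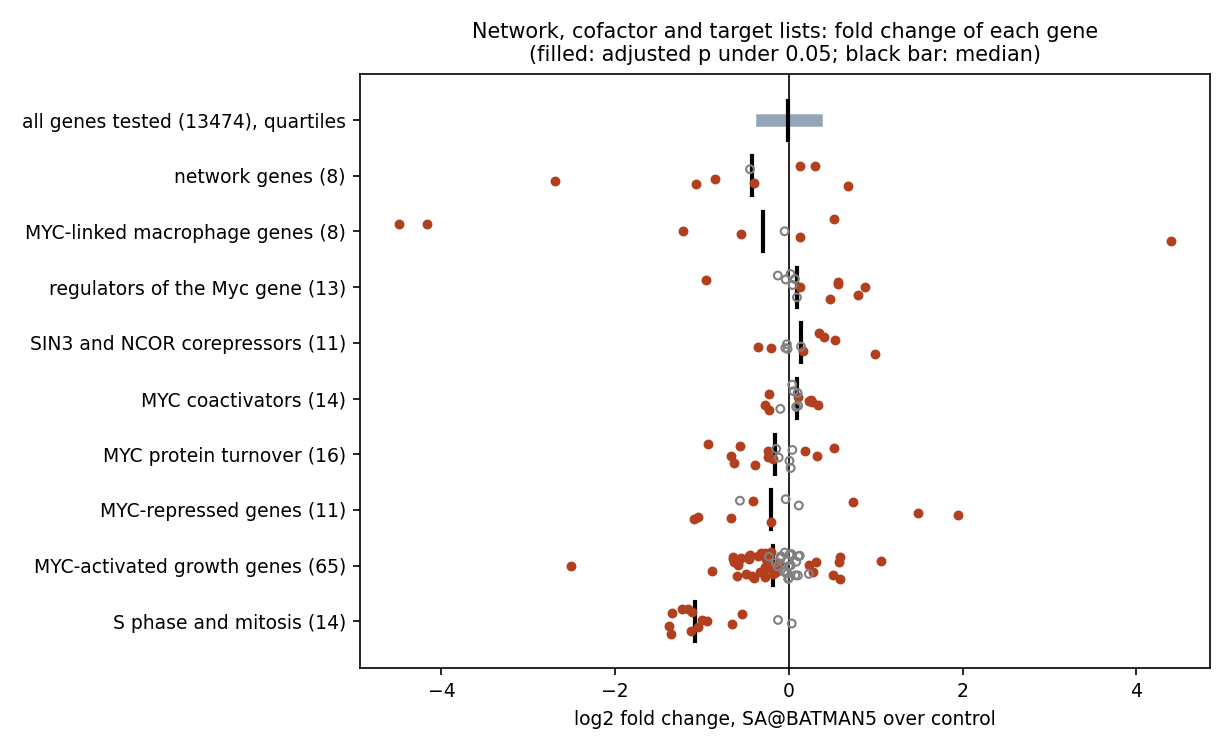
Each point is the log2 fold change, SA@BATMAN5 over control, of a tested gene in 9 lists, filled where the edgeR adjusted p is under 0.05, with a black bar at each list's median and the quartiles of all 13474 tested genes at the top. The growth genes lie mostly near 0 with a median of -0.18 and Tfrc at -2.51, whereas the S phase and mitosis list has a median of -1.08.

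The genes whose pattern over the 6 libraries was nearest to that of Myc were sought among 9566 named genes at a mean of at least 5 CPM, by Euclidean distance between gene-centred log2(CPM + 0.5) values. Nearest was Plau, the urokinase plasminogen activator, at a distance of 0.204, with 128 ± 4.61 CPM with SA@BATMAN5 and 772 ± 6.50 CPM in controls. The exchange factor gene Mcf2l (0.218), the endocytic adaptor gene Dab2 (0.233), the brain-type creatine kinase gene Ckb (0.265) and Tmem144 (0.269) followed. Of these 5, Plau and Dab2 were also among the 5 nearest on the FPKM scale. Nearest to Mxd1 were the bromodomain gene Brpf3 (0.0801), Nfxl1 (0.113), the deubiquitinase gene Usp35 (0.125), Pnpt1, which encodes a mitochondrial RNA-degrading enzyme (0.157), and the homeobox gene Hlx (0.159). The 6 points fall into the 2 groups, so genes of a like fold change lie near each other by construction.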

How the data were processed

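The sample titles gave the groups and replicate numbers. Per the file headers, the deposited table holds whole-number counts per gene, the authors' FPKM, and the p-value and log2 fold change of the authors' DESeq2 comparison. In its columns S-5 was read as SA@BATMAN5 and N as control, which is a reading of the names. Per the submitters' processing notes, the authors used GRCm39, DESeq2 1.26.0, StringTie 2.1.2 and HISAT2 2.2.0. Which tool counted reads, with which annotation and strand setting, is not given in the sources used here, so reads of overlapping genes cannot be told apart. Per the labels' protocols, 1.3 ug of RNA entered a SMARTer mRNA kit.

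Counts were filtered with filterByExpr (minimum count 10, minimum total 15), given TMM scaling and tested in edgeR 4.0.16 (glmQLFit, glmQLFTest, two-sided, group alone) in R 4.3.3, with Benjamini-Hochberg adjustment over all 13474 genes. A count of 3 is 0.0619 to 0.103 CPM, depending on the library, which covers counting error only. Replicate libraries differed beyond sampling noise, with a chi-square of 4.56 to 7.80 per degree of freedom, and were counted separately. Alternatives used DESeq2 1.42.0 and limma 3.58.1. Sequences came from RefSeq tables on GRCm38.p6, another build than the authors', and the overlap of genes from a GRCm38 annotation.

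Members, lists and tests were chosen with earlier results of these data known. The rule named all members, the 3 called genes of each other list with the smallest p, every gene of lists of 5 or fewer, and the 5 genes nearest to Myc and to Mxd1, of which 2 list genes are not reported here. The authors' 3 comparisons of single libraries were not used.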

Additional observations from a re-analysis of the deposited data

How the results depend on the processing

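Myc, Mxd1, Mxd4, Mxi1, Mnt and Mlx kept their direction and their side of the threshold under all 18 alternatives run for each, with log2 fold changes of -2.77 to -2.46 for Myc, -1.15 to -1.04 for Mxd4, -0.93 to -0.82 for Mxi1, -0.48 to -0.36 for Mnt, 0.43 to 0.78 for Mxd1 and 0.21 to 0.36 for Mlx. Max lost its call with library totals (0.0561, adjusted p 0.235), upper-quartile scaling (0.0493, adjusted p 0.294), limma on log2(FPKM + 1) (0.0427, adjusted p 0.390) and log2(FPKM + 0.1) (0.0438, adjusted p 0.393). The call of Max was also lost without SA@BATMAN5 library 1, and its log2 fold change ranged from 0.10 to 0.15 when single libraries were left out. Mxd3 passed with limma on log2(FPKM + 1) alone (-0.16, adjusted p 0.0484). With library totals and upper-quartile scaling, 0 MondoA and MLX targets were higher, 4 corepressor genes were lower and 3 genes acting on Myc were lower. Over all genes the calls were then 3291 higher and 4694 lower with library totals. Upper-quartile scaling gave 3239 higher and 4791 lower. With limma on log2(FPKM + 1) 2 coactivator genes, 5 growth genes and 0 MondoA and MLX targets were higher and 3 genes acting on Myc were lower, and on log2(FPKM + 0.1) these were 3, 5, 0 and 3. Leaving out single libraries gave 0 to 1 higher MondoA and MLX targets, 0 to 1 higher wider relatives and 1 to 2 lower genes acting on Myc. Of the 5 genes nearest to Myc, 2 were shared on the FPKM scale. The list medians also moved: over 18 alternatives they spanned -0.26 to -0.16 for growth genes, 0.06 to 0.18 for corepressors, -0.29 to -0.0447 for MYC-repressed genes, -0.24 to -0.14 for turnover, 0.0042 to 0.12 for coactivators, 0.0123 to 0.12 for genes acting on Myc, -0.58 to -0.48 for MondoA and MLX targets, -0.38 to -0.28 for the human macrophage list, -0.0197 to 0.10 for wider relatives and -1.18 to -0.93 for S phase and mitosis, while the median of all genes spanned -0.0851 to -0.0020. The cause of these changes was not tested. Deviations of same-numbered libraries were barely correlated (0.0196, -0.0042 and 0.0164), and not every library correlated best with its own number. These correlations cannot show whether same-numbered libraries shared an animal or culture. With a replicate block 3928 genes were higher and 3818 lower, and 3 members were higher and 4 lower. Depth limits Mycl and Mxd3, with 0 to 14 and 18 to 49 counts per library.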
